A study of Arabidopsis thaliana with 8 samples.

Results

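CCA1 (AT2G46830), LHY (AT1G01060), RVE1 (AT5G17300), RVE2 (AT5G37260), RVE3 (AT1G01520), RVE4 (AT5G02840), RVE5 (AT4G01280), RVE6 (AT5G52660), RVE7 (AT1G18330) and RVE8 (AT3G09600) are the morning-phased Myb-like genes of the Arabidopsis circadian clock. They were selected by locus identifier, with earlier results of the same genotype comparisons known, so their differences from Col-0 are described with their errors and carry no test. All 10 genes were among the 21960 genes measured. RNA-Seq was performed on leaves of 4-week-old plants of the Col-0 ecotype grown without treatment in long days of 16 h light and 8 h dark, at 20 °C in the sample labels. The genotypes were co-SAIL, a mutant in CONSTANS (CO), 35S::miP1a and 35S::miP1b, which overexpress FLAG-tagged microProteins from the constitutive 35S promoter, and Col-0 wild type. Each of the 4 genotypes had 2 libraries, which the series design calls technical replicates and the methods call samples, so the spread between them may not include variation between plants. How many independent transgenic lines or pooled plants each genotype stands for, and the hour of harvest, are not given in the sources used here.

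In the clock, CCA1 and LHY are transcription factors that accumulate around dawn and repress genes expressed later in the day, many of which carry a sequence called the evening element. RVE4, RVE6 and RVE8 bind the same element but activate its targets during the day, together with the LNK co-activators, and the PRR proteins repress CCA1, LHY and RVE8 in turn. CO, the gene mutated in co-SAIL, promotes flowering in long days, and the daily timing of its mRNA is set by this clock.

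The bases just upstream of CCA1 and LHY are shown because these were the members furthest above Col-0, and they hold a short motif in common. The sequences are from the RefSeq TAIR10.1 assembly and end at the base before the annotated start of the gene. For CCA1 they are chr2:19245341-19245590 on the plus strand and for LHY chr1:37872-38121 on the minus strand. Capitals mark a G-box, CACGTG, bound by bHLH and bZIP factors, and in CCA1 also the site GGTCCCAC, known for binding of the clock repressor CHE.
CCA1: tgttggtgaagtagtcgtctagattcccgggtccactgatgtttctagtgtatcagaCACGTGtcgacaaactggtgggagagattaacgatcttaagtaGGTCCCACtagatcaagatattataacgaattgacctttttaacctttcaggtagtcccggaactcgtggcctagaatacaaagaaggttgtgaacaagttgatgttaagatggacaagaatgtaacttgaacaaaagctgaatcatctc
LHY: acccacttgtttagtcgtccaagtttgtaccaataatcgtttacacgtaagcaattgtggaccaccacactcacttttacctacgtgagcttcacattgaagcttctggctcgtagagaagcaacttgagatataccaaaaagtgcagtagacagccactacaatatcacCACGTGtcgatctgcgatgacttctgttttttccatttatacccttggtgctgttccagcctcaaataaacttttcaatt
The G-box began 193 bases before the start of CCA1 and 80 bases before the start of LHY, and the CHE site of CCA1 began 150 bases before its start.

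A G-box was found within 250 bases upstream of 6 of the 10 members and of 6.49% of 27443 protein-coding genes. The others with one were RVE1, RVE2, RVE3 and RVE5. The 30 bases around each G-box, on the strand of the gene, are set out to show how far the flanks resemble each other.
CCA1: tagtgtatcagaCACGTGtcgacaaactgg
LHY: ctacaatatcacCACGTGtcgatctgcgat
RVE1: gagaaagagcgaCACGTGgcaaagatggac
RVE2: gaagaaatcctcCACGTGtcattagcatct
RVE3: acgatcgtattcCACGTGgcaatttatgtg
RVE5: acgagaccctaaCACGTGtaaaggaaacaa
In CCA1 and LHY the G-box was followed by the same 4 letters, TCGA, and in RVE1 and RVE3 by the same 4 letters, GCAA, so a shared flank was not particular to CCA1 and LHY. The evening element AAAATATCT was found upstream of RVE7, and of 2.36% of all genes. The related CCA1-binding site AAAAATCT was found upstream of RVE2 and RVE6, and of 6.69% of all genes, and GGTCCCAC upstream of CCA1 and of 0.372% of all genes. All motifs were searched on both strands. A match describes the letters of this window and is not evidence of binding. RVE4 and RVE8 had 0 matches to these motifs in this window.

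The libraries held 14696808 to 18884723 effective reads, the library sizes after the normalization of the authors, and values are given as counts per 1000000 of these reads (CPM). The labels of the transgenic plants could be checked on the transgenes. miP1a was at 3701 CPM in 35S::miP1a, against 0.694 CPM in Col-0, and miP1b at 1046 CPM in 35S::miP1b, against 0.0869 CPM or 3 reads in Col-0. CO reads were still present in co-SAIL, with 6.04 and 5.06 CPM, against 4.71 and 5.18 CPM in Col-0. Their count therefore does not check this label. CO overlaps 2 annotated genes on the opposite strand, and whether the counting used strand is not given in the sources used here. The leaf markers RBCS1A, RCA and LHCA3 had at least 1846 CPM in every genotype. A further leaf marker, LHCB2.1, was far lower, with 18.9 to 56.5 CPM over all libraries. The floral identity gene LFY was also listed but was not among the genes measured. Of the root markers, NRT2.1 reached 5.75 CPM and ZIP9, PYK10 and IRT1 had at most 0.665 CPM, and the floral identity genes AP1, AG, AP3 and PI at most 0.582 CPM in all libraries.

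CCA1 had the highest log2 change against Col-0 among the 8 members with a mean of at least 1 CPM. It stood at 6.01 and 7.28 CPM in the 2 libraries of 35S::miP1a, from 113 and 107 reads, against 1.85 and 1.34 CPM in Col-0, from 35 and 21 reads. In co-SAIL it had 1.59 and 1.12 CPM and in 35S::miP1b 2.99 and 1.24 CPM. Both 35S::miP1a libraries were thus above the other 6 libraries, while the libraries of co-SAIL and of 35S::miP1b overlapped those of Col-0. The mean was 6.64 ± 0.90 CPM in 35S::miP1a and 1.60 ± 0.36 CPM in Col-0 (SD, n = 2 each). The log2 change of 35S::miP1a against Col-0 was 2.02, or 4.05-fold, with a 95% interval of 1.48 to 2.55. This interval covers counting error and the dispersion shared by all genes. The log2 change against Col-0 was -0.25 in co-SAIL (-0.91 to 0.41) and 0.39 in 35S::miP1b (-0.21 to 0.98). In leaf RNA, a larger share of cells that express CCA1 and more CCA1 RNA per cell cannot be told apart.

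LHY, the closest relative of CCA1, was also higher in 35S::miP1a, and to a lesser extent in 35S::miP1b. It had 9.51 and 7.42 CPM in 35S::miP1a, from 179 and 109 reads, against 2.97 and 2.49 CPM in Col-0, from 56 and 39 reads. In 35S::miP1b it had 5.76 and 4.17 CPM, and in co-SAIL 3.11 and 3.28 CPM. The libraries were therefore ordered without overlap from 35S::miP1a through 35S::miP1b and co-SAIL to Col-0. The step between co-SAIL and Col-0 was small, with a log2 change of 0.22 (95% interval -0.30 to 0.73). The log2 change was 1.64 in 35S::miP1a (1.18 to 2.11), which is 3.12-fold, and 0.85 in 35S::miP1b (0.37 to 1.34), which is 1.81-fold. Set against each other, 35S::miP1a exceeded 35S::miP1b by a log2 difference of 0.79 (0.37 to 1.21) in LHY and of 1.63 (1.13 to 2.13) in CCA1. The 35S::miP1b libraries lay 2.41-fold apart in CCA1, so its interval, built on the shared dispersion, may be too narrow.

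**Figure D1:**
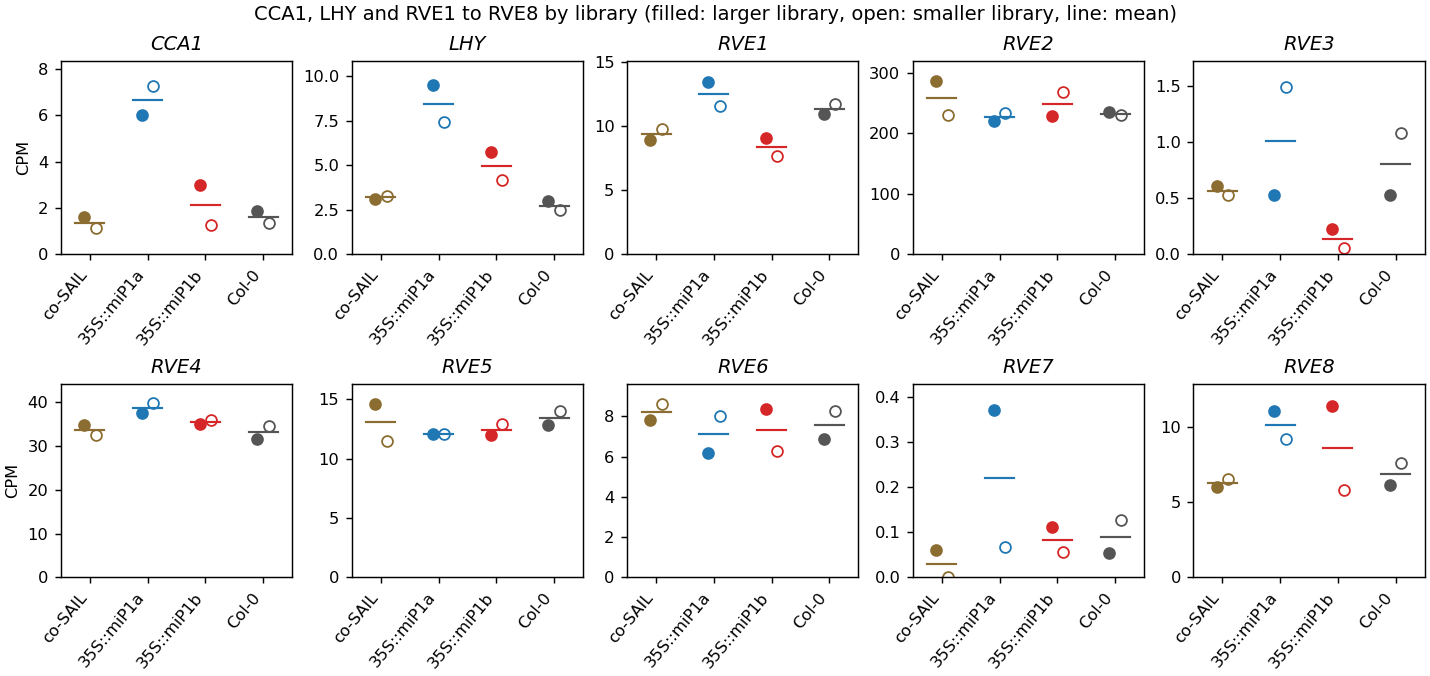
Level of each of the 10 members in CPM (vertical axes, each from 0) in the 2 libraries of each genotype. Filled points are the larger and open points the smaller library of a genotype and lines are means. CCA1 and LHY stand apart in 35S::miP1a, and the libraries of 35S::miP1b lie far apart for CCA1 and RVE8.

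RVE4, RVE6 and RVE8 encode the activators of evening-element genes. RVE8 had 11.1 and 9.19 CPM in 35S::miP1a, against 6.14 and 7.61 CPM in Col-0. Both 35S::miP1a libraries were above both Col-0 libraries, and the log2 change was 0.59 (95% interval 0.18 to 0.99). Without the larger Col-0 library the log2 change of RVE8 was 0.43, and without the larger 35S::miP1a library it was also 0.43, and each of these intervals included 0. In 35S::miP1b the libraries had 11.4 and 5.81 CPM, one above and one below both Col-0 libraries, and in co-SAIL 5.98 and 6.57 CPM. RVE4 had 37.5 and 39.7 CPM in 35S::miP1a, 35.0 and 35.9 CPM in 35S::miP1b and 34.9 and 32.4 CPM in co-SAIL, against 31.7 and 34.7 CPM in Col-0. Its libraries in both overexpressors lay above those of Col-0, but by little, with log2 changes of 0.22 (-0.12 to 0.57) in 35S::miP1a and 0.10 (-0.24 to 0.45) in 35S::miP1b. RVE6 had 6.17 and 8.03 CPM in 35S::miP1a, 8.36 and 6.26 CPM in 35S::miP1b and 7.82 and 8.61 CPM in co-SAIL, against 6.88 and 8.25 CPM in Col-0. All genotypes overlapped Col-0 in RVE6, and its log2 changes lay between -0.10 and 0.13.

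RVE1, RVE2 and RVE7 belong to a further branch of the family. RVE1 links the clock to auxin synthesis. It had 9.03 and 7.67 CPM in 35S::miP1b and 8.91 and 9.79 CPM in co-SAIL, against 10.9 and 11.7 CPM in Col-0, so that both libraries of these genotypes were below both of Col-0. In 35S::miP1a its 13.4 and 11.6 CPM overlapped Col-0. The log2 change of RVE1 was -0.43 in 35S::miP1b (95% interval -0.82 to -0.04), -0.27 in co-SAIL (-0.66 to 0.12) and 0.16 in 35S::miP1a (-0.22 to 0.54). Without the smaller Col-0 library or the smaller 35S::miP1b library the value in 35S::miP1b was -0.38 or -0.32, with intervals that included 0. RVE1 was also higher in 35S::miP1a than in 35S::miP1b, by 0.59 (0.20 to 0.98). An annotated gene on the opposite strand, AT5G17305, overlaps RVE1, and whether the counting used strand is not given in the sources used here.

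RVE2, also called CIR1, was by far the most abundant member. It had 221 and 233 CPM in 35S::miP1a, 229 and 267 CPM in 35S::miP1b and 287 and 229 CPM in co-SAIL, against 235 and 230 CPM in Col-0. The genotypes overlapped, and with 3419 to 4740 reads in a library the 95% interval of its log2 change was -0.37 to 0.29 in 35S::miP1a and -0.24 to 0.42 in 35S::miP1b. RVE7, also called EPR1, was close to the detection limit, taken as 3 reads in a genotype. It had 7 and 1 reads in 35S::miP1a, 2 and 1 in 35S::miP1b and 1 and 0 in co-SAIL, against 1 and 2 in Col-0. The ratio of 35S::miP1a to Col-0 was 2.75, with an exact counting interval of 0.659 to 16.1, and for the other genotypes no ratio is given.

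RVE5 and RVE3 are the remaining members, for which smaller roles in the clock are known. RVE5 had 12.1 CPM in both libraries of 35S::miP1a, 12.02 and 12.92 CPM in 35S::miP1b and 14.65 and 11.49 CPM in co-SAIL, against 12.82 and 14.01 CPM in Col-0. Both 35S::miP1a libraries were below both Col-0 libraries, with a log2 change of -0.14 (-0.52 to 0.24). RVE3 had 4 and 1 reads in 35S::miP1b, 10 and 22 in 35S::miP1a and 10 and 8 in co-SAIL, against 10 and 17 in Col-0. Its log2 change in 35S::miP1b was -2.49, with a 95% interval of -3.90 to -1.07, the lowest value among the members. It rests on 5 reads in 35S::miP1b, and RVE3 had a mean of 0.609 CPM and was not counted below for that reason. RVE3 also overlaps AT1G01510 on the same strand, and RVE5 overlaps AT4G01290 on the opposite strand.

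**Figure D2:**
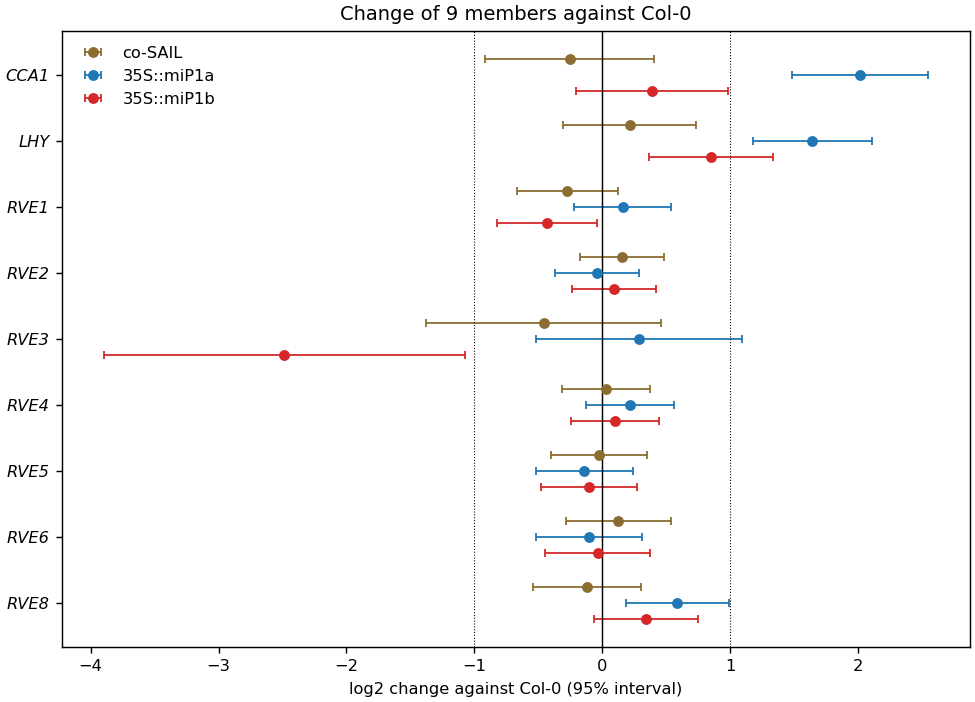
Log2 change of 9 members against Col-0 (horizontal axis) in co-SAIL, 35S::miP1a and 35S::miP1b. Bars are 95% intervals from counting error and the shared dispersion, dotted lines mark 2-fold, and RVE7 is left out for its few reads. CCA1 at 2.02 and LHY at 1.64 in 35S::miP1a lie right of the 2-fold line, and RVE3 at -2.49 in 35S::miP1b left of it.

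Counted with a minimum change of 2-fold, 8 of the 10 members could be placed among the 17047 genes with a mean of at least 1 CPM. RVE3 and RVE7 had less. In 35S::miP1a, 2 of the 8, CCA1 and LHY, were at least 2-fold higher and 0 were at least 2-fold lower, where 1.71% of all genes were higher and 1.48% lower. In 35S::miP1b 0 members were past 2-fold in either direction, with 0.862% of all genes higher and 3.57% lower. In co-SAIL 0 members were past it, with 0.287% of all genes higher and 1.29% lower. Of the 17047 genes, 67 had a higher change than CCA1 and 97 a higher change than LHY in 35S::miP1a. In 35S::miP1b, 247 genes had a higher change than LHY. The same contrasts led to the choice of these genes, so their place in this ranking is a description. The median log2 change of the 8 members was 0.00 in co-SAIL, 0.19 in 35S::miP1a and 0.10 in 35S::miP1b, and that of all genes was 0.00, -0.01 and 0.00. All of these comparisons share the Col-0 libraries.

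Judged by whether libraries overlap, the picture was broader and so was the background. Both 35S::miP1a libraries were above both Col-0 libraries in 4 of the 8 members (CCA1, LHY, RVE4 and RVE8) and below in 1 (RVE5), against 25.8% and 27.7% of 16259 genes with values per library. For 35S::miP1b, 2 members were above (LHY and RVE4) and 1 below (RVE1), against 26.7% and 28.4% of genes. For co-SAIL, 1 was above (LHY) and 1 below (RVE1), against 17.2% and 18.6% of genes.

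**Figure D3:**
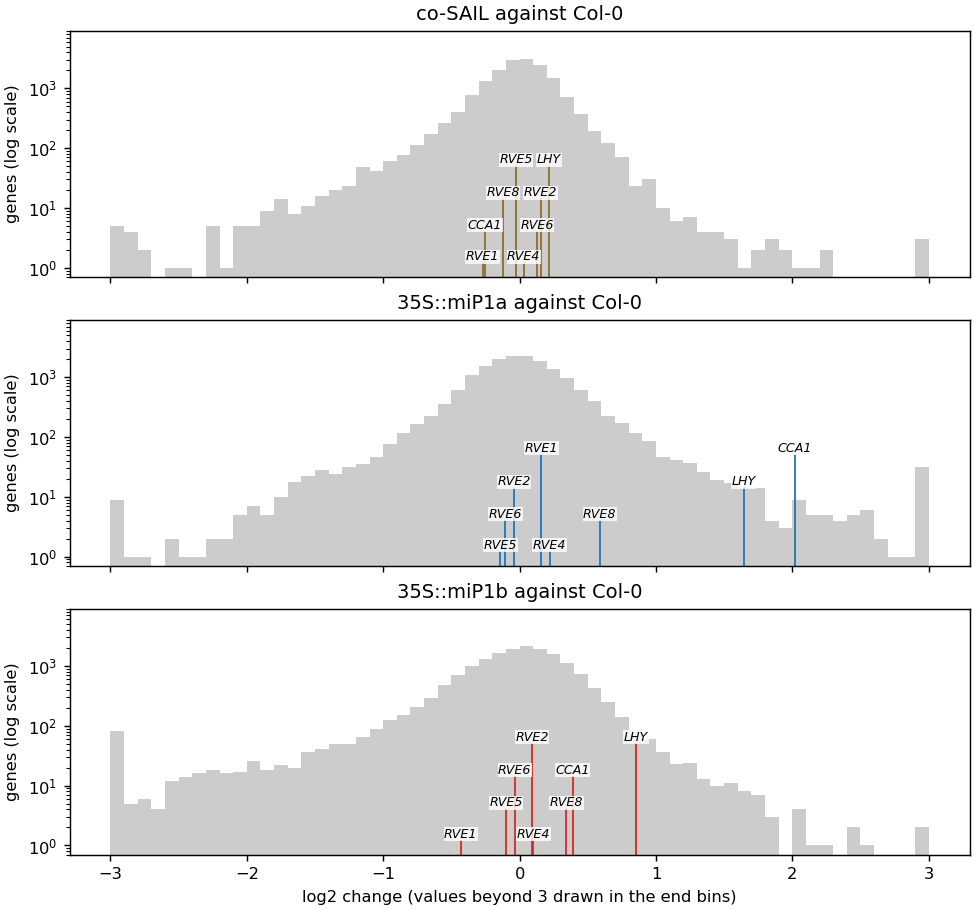
Log2 change against Col-0 (horizontal axis) of the 17047 genes with a mean of at least 1 CPM, as number of genes on a log scale, for co-SAIL, 35S::miP1a and 35S::miP1b from top to bottom. Coloured lines mark the 8 members with at least 1 CPM, at heights chosen only for legibility. CCA1 and LHY lie in the right tail in 35S::miP1a, where 67 and 97 genes lie further right. In co-SAIL the 8 members lie between -0.27 and 0.22.

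The libraries of 35S::miP1b differed from each other in this group. CCA1 was 2.41-fold higher in its larger library, a log2 difference of 1.27 (95% interval 0.42 to 2.12), and RVE8 was 1.96-fold higher, a log2 difference of 0.97 (0.40 to 1.55). LHY was higher in the same library by 0.46 (-0.17 to 1.09), whereas RVE4 differed by -0.04 and RVE2 by -0.22. CO, with 8.31 and 4.46 CPM in 35S::miP1b, differed in the same direction by 0.90 (standard error 0.31). Other clock genes differed in the opposite direction, among them PIF4 by -0.90 (-1.55 to -0.25) and BOA by -0.58 (-1.08 to -0.07). Such differences outside the members were not particular to 35S::miP1b. In Col-0, LNK1 differed by -0.91 (-1.65 to -0.16), LNK2 by -0.70 (-1.26 to -0.13) and GI by -0.67 (-1.29 to -0.04). In co-SAIL, LNK1 differed by -1.14 (-2.02 to -0.26). CCA1 was the 1 member of the 8 whose libraries were at least 2-fold apart in 35S::miP1b, as 2.26% of all genes were. In co-SAIL, 35S::miP1a and Col-0, 0 members were that far apart, against 2.31%, 1.57% and 2.41% of all genes. Without the larger 35S::miP1b library, the log2 change against Col-0 was -0.39 for CCA1, -0.23 for RVE8 and 0.60 for LHY. Without the smaller one it was 0.88, 0.74 and 1.07, so that LHY then passed 2-fold. The part of the difference between these libraries in the values of 35S::miP1b was not tested further.

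**Figure D4:**
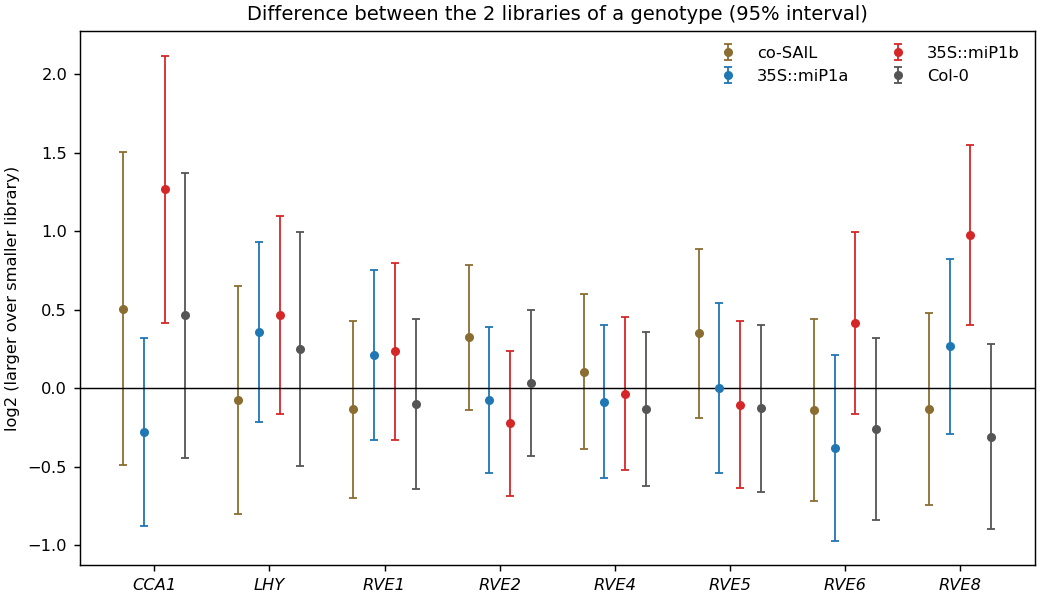
Log2 of the level in the larger over that in the smaller library of the same genotype (vertical axis) for the 8 members with at least 1 CPM, with 95% intervals. In 35S::miP1b, CCA1 at 1.27 and RVE8 at 0.97 lie above 0 with their intervals, and RVE4 at -0.04 lies close to 0.

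Levels can be compared between members only per length. The length covered the exons of all annotated transcripts, from 1 transcript in RVE2 to 9 in RVE8. Which transcripts the reads came from is not known, so the order is approximate. The hour of harvest is not given either, and the order describes these libraries only, not other times of day. In CPM per kb of exon, the order in Col-0 was RVE2 (237), RVE4 (15.7), RVE5 (5.95), RVE1 (5.59), RVE6 (4.54), RVE8 (2.90), LHY (0.804), CCA1 (0.596), RVE3 (0.492) and RVE7 (0.0429). RVE5 and RVE1 overlapped in their Col-0 libraries, as did CCA1 and RVE3, and the other neighbours did not. In 35S::miP1a, LHY at 2.51 and CCA1 at 2.41 CPM per kb overlapped, and so did RVE8 at 4.37 and RVE6 at 4.22 CPM per kb. CCA1 and LHY thus stayed below RVE4, RVE5, RVE1, RVE6 and RVE8 in all genotypes on this scale.

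Summed over the CCA1 and LHY pair, the level was 4.99 and 4.84 CPM per kb in 35S::miP1a, 2.78 and 1.68 in 35S::miP1b and 1.49 and 1.37 in co-SAIL, against 1.55 and 1.22 in Col-0. The sum of the activators RVE4, RVE6 and RVE8 varied less, with 26.2 and 27.6 CPM per kb in 35S::miP1a, 26.5 and 23.3 in 35S::miP1b and 23.9 and 23.4 in co-SAIL, against 21.8 and 24.7 in Col-0. RVE4 was the largest part of this sum, at 15.7 CPM per kb in Col-0, against 4.54 for RVE6 and 2.90 for RVE8. The sum therefore mainly reflects RVE4. The activator sum was 5.26 and 5.71 times the pair sum in 35S::miP1a, 9.54 and 13.9 times in 35S::miP1b and 16.0 and 17.1 times in co-SAIL, against 14.1 and 20.2 times in Col-0. Both 35S::miP1a ratios were below those of the other 6 libraries, and both ratios of 35S::miP1b were below both ratios of Col-0, although 13.9 and 14.1 lie close together. Because the activator sum varied little, these ratios mainly restate the levels of CCA1 and LHY and are not a separate result. Within the pair, LHY was 1.26 and 0.811 times CCA1 in 35S::miP1a, 1.53 and 2.68 times in 35S::miP1b and 1.56 and 2.34 times in co-SAIL, against 1.27 and 1.48 times in Col-0.

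Among the partners of these genes, 39 further clock genes and clock outputs were measured. With the mean of at least 1 CPM, 0 genes of the 5 lists were at least 2-fold higher or lower in any genotype. The LNK co-activators, which bind RVE4 and RVE8, had 2 of 4 genes above 1 CPM, with log2 changes of 0.54 and 0.95 in 35S::miP1a, -0.02 and 0.44 in 35S::miP1b and -0.47 and -0.05 in co-SAIL. LNK2 had 17.3 and 15.4 CPM in 35S::miP1a, against 6.67 and 10.8 CPM in Col-0. LNK2 overlaps 2 genes on the opposite strand. Below 1 CPM, LNK4 had 21 and 7 reads in 35S::miP1a, against 2 and 3 in Col-0, a log2 change of 2.53 (95% interval 1.12 to 3.94). In co-SAIL, LNK4 had 7 and 5 reads, against the same 2 and 3 in Col-0. LNK4 overlaps AT5G06990 on the same strand, and LNK3 overlaps AT3G12340 on the opposite strand. LNK3 had 2 and 4 reads in co-SAIL, against 16 and 3 in Col-0. The auxin synthesis gene YUC8 had 13 and 2 reads in co-SAIL, against 0 and 6 in Col-0. In 35S::miP1a YUC8 had 5 and 0 reads, and in 35S::miP1b 0 and 0.

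The 10 day and evening clock genes above 1 CPM, among them the PRR genes, TOC1, GI and the evening complex genes ELF3, ELF4 and LUX, had a median log2 change of 0.17 in 35S::miP1a, 0.06 in 35S::miP1b and -0.02 in co-SAIL. Their changes spanned -0.79 to 0.50 in 35S::miP1a, -0.91 to 0.46 in 35S::miP1b and -0.41 to 0.22 in co-SAIL. ELF4 was the lowest in all 3 genotypes. It had 26.4 and 28.2 CPM in 35S::miP1a, 25.1 and 24.9 CPM in 35S::miP1b and 34.3 and 36.6 CPM in co-SAIL, against 53.5 and 39.3 CPM in Col-0. The log2 change of ELF4 was -0.79 (95% interval -1.14 to -0.45) in 35S::miP1a and -0.91 (-1.26 to -0.57) in 35S::miP1b. In co-SAIL it was -0.41 (-0.76 to -0.07). LNK1, LNK2, GI, ELF4, BOA, CDF2, TOC1, PRR9, PIF4 and LHCB2.1 are singled out after their values were seen. TOC1 ranged from 102 to 153 CPM over all libraries, with a log2 change of 0.17 (95% interval -0.16 to 0.50) in 35S::miP1a. PRR9, a gene of the early morning, had 0 to 0.128 CPM in all libraries. Whether the genotypes were harvested at the same hour is not given, and its part in the values of CCA1 and LHY was not tested.

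The 6 F-box and CDF genes above 1 CPM had medians of 0.09 in 35S::miP1a, 0.00 in 35S::miP1b and -0.03 in co-SAIL. The highest was CDF2, a repressor of CO transcription, with 11.43 and 10.14 CPM in 35S::miP1a, against 6.20 and 4.99 CPM in Col-0. The 7 subunit genes of casein kinase 2, which phosphorylates CCA1, lay between -0.28 and 0.21 in all genotypes. The 7 clock outputs above 1 CPM had medians of 0.15 in 35S::miP1a, 0.04 in 35S::miP1b and -0.17 in co-SAIL. The chlorophyll-binding protein gene LHCB2.1, listed as a leaf marker, had 56.5 and 50.9 CPM in 35S::miP1a, 37.7 and 28.3 CPM in 35S::miP1b and 31.1 and 34.6 CPM in co-SAIL, against 18.9 and 21.6 CPM in Col-0. Its libraries in all 3 genotypes were above Col-0, with a log2 change of 1.43 (95% interval 1.08 to 1.78) in 35S::miP1a. The other leaf markers differed less, with log2 changes of 0.07 to 0.35 in 35S::miP1a.

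**Figure D5:**
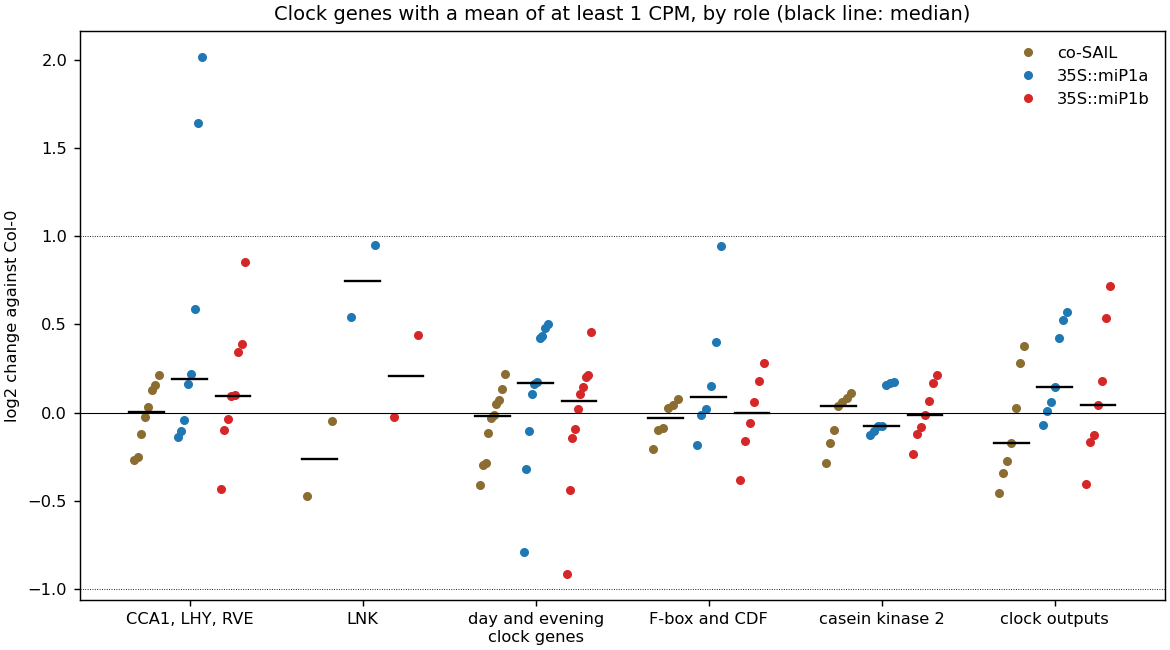
Log2 change against Col-0 (vertical axis) of clock genes with a mean of at least 1 CPM, grouped by role, in co-SAIL, 35S::miP1a and 35S::miP1b. Points are genes, black lines medians and dotted lines 2-fold. CCA1 and LHY in 35S::miP1a, at 2.02 and 1.64, are the points past 2-fold.

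The genes most like CCA1 and LHY were sought among 11382 others with at least 10 CPM by the distance between their 3 log2 changes, a description over 4 genotypes with common Col-0 libraries. Nearest to CCA1 were the jasmonate-responsive lectin gene JR1 (AT3G16470), AT2G38180, AT2G07732, AT1G14250 and the homeobox gene HB-7 (AT2G46680), at distances of 0.35 to 0.73. JR1 had 127 and 143 CPM in 35S::miP1a, against 33.5 and 30.9 CPM in Col-0, and, like CCA1, unequal levels in 35S::miP1b of 56.9 and 34.9 CPM. Nearest to LHY were AT2G38180, AT5G50915, the proline synthesis gene P5CS1 (AT2G39800), AT1G62660 and the hydroperoxide lyase gene HPL1 (AT4G15440), at distances of 0.37 to 0.43. AT2G38180 was near to both, with 66.2 and 73.1 CPM in 35S::miP1a, 34.9 and 35.1 CPM in 35S::miP1b and 19.4 and 16.6 CPM in co-SAIL, against 19.8 and 18.3 CPM in Col-0.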

How the data were processed

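Leaf RNA of 8 libraries was sequenced on an Illumina HiSeq2000. The authors clipped the reads with Trimmomatic 0.32, mapped them with Bowtie to TAIR10 in RobiNA and fitted edgeR 2.6.12 with default normalization. As deposited, the log2 columns give Col-0 divided by a genotype and the mean abundance as log2 CPM. The score in the authors' tables is a likelihood ratio, used here only to check the recovery. The p-value and FDR columns of the deposited tables hold the authors' own tests and were not used. Unused columns of per-sample values numbered 0.

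Each gene's fold changes and mean abundance are exact functions of 8 whole read counts, the library sizes, a prior count of 0.5 in total and a common dispersion. Sizes and dispersion (0.0132, a coefficient of variation of 11.5%) were fitted to 353 genes with 1 read, and counts were searched for genes with up to 35000 reads. Counts were recovered for 21172 genes (96.4%), and likelihood ratios recomputed from them matched the deposited ones within 1e-04 for 100% of these genes. The other genes have 1 estimate per genotype. The search was also tested on simulated data. Libraries are called larger or smaller by effective size, since the tables do not show which is replicate 1 or 2. The design had foreseen 1 value per genotype.

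Log2 changes are of pooled CPM, genotype over Col-0. The 95% intervals use 1/reads of each group plus the dispersion, cover counting error and that dispersion, and may be too narrow for variation between plants. No p-value was computed. Counts use 2-fold and a mean of at least 1 CPM. The members and lists were chosen with earlier results of these data known. Named are all members, list genes past 2-fold, the 5 genes nearest to CCA1 and to LHY, and CO, miP1a and miP1b, with a few further list genes and markers chosen after their values were seen. Positions, exon lengths and sequences are from RefSeq TAIR10.1. How reads shared by related genes were counted is not given in the sources used here. The growth temperature is 20 °C in the labels and differs in the methods. Alternatives were centring, another scaling, other folds, filters and dispersions, and leaving out each library. Counting non-overlapping libraries, and recovering single libraries, were added after seeing the data. The work was done in Python 3.11.15 with pandas 2.3.3, SciPy 1.17.1, NumPy 2.4.6 and, for plots, matplotlib 3.10.9.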

Additional observations from a re-analysis of the deposited data

How the results depend on the processing

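No paired analysis was possible because the recovered libraries carry no replicate number. CCA1 and LHY were the 2 members at least 2-fold higher in 35S::miP1a under centring, scaling by the sum of reads, and without each library in turn. At a minimum of 1.5-fold 3 were, with RVE8, without a filter 3 were, with RVE7 on 8 against 3 reads, at a minimum of 4-fold 1 was, CCA1, and with a mean of at least 10 CPM 0 were, since CCA1 and LHY lie below it. In 35S::miP1b, 1 member was higher at a minimum of 1.5-fold, 0 to 1 without each library, and 1 was lower without a filter, RVE3. The median log2 change of the members in 35S::miP1a was 0.16 scaled by the sum of reads, 0.25 without a filter, 0.059 with at least 10 CPM, and 0.13 to 0.24 without each library. That in 35S::miP1b was -0.14 to 0.13 without each library, lowest without its larger one. For single members, 204 of 216 values kept whether their interval excluded 0. The intervals of RVE8 in 35S::miP1a and RVE1 in 35S::miP1b included 0 with a dispersion of 0.04 or 0.16, and that of LHY in 35S::miP1b with 0.16. RVE3 and RVE7 are limited by depth, with at most 22 and 7 reads in a library.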
